A study of Mus musculus with 20 samples.

Results

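The genes followed here are 9 genes of cytotoxic T cells and natural killer (NK) cells, namely Gzmb, Gzma, Prf1, Ctsw, Nkg7, Cd8a, Cd3e, Lck and Tcf7, together with Il15, which encodes a cytokine that maintains these cells. They are 10 of the 54532 genes in the count tables. The 10 were chosen by the difference between miR-1 mimic and control in overloaded plantaris muscle, so that difference is described without a test. Every comparison that contains the overloaded libraries shares them with that choice, so for these genes overload against sham is described too, and the test was kept to mimic against control in sham muscle, whose libraries are no part of that difference. The genes were proposed with results from all libraries known, so the sham test is not fully independent of the choice either.

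RNA-seq was performed on plantaris muscles of male C57BL/6J mice at 5 months of age, 10 days after sham surgery or mechanical overload (MOV) by removal of part of the gastrocnemius and soleus of both hindlimbs. At surgery the left plantaris of each mouse received lentivirus with a scrambled control sequence and the right plantaris lentivirus with a miR-1 mimic, both under a CMV promoter, which is not restricted to muscle fibers, and with TurboGFP as reporter. The 20 libraries form 4 groups of 5, named sham control and sham mimic, MOV control and MOV mimic, and all of them had surgery and received virus. The methods state 5 mice for each surgery, and the labels number the libraries of a group from 1 to 5 without stating that equal numbers are legs of 1 mouse. A pair here means the control and the mimic library of 1 surgery with the same number, and may or may not be 1 mouse.

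Cytotoxic T cells and NK cells kill target cells by releasing granules. Perforin makes pores in the target membrane, and granzymes enter through them and start cell death. T cells recognize peptides through the T cell receptor, whose signal passes through the CD3 chains and the kinase Lck, with CD8 as the co-receptor of the cytotoxic lineage. IL-15 is made by muscle fibers as well as by myeloid and stromal cells and is presented on the IL-15 receptor alpha chain to lymphocytes that carry the beta chain and the common gamma chain.

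The start-site regions of the granule genes are shown because these genes varied together across libraries and their promoters are known to be read by Runx, T-box and Ets factors in lymphocytes. The windows come from RefSeq on GRCm38.p6, 250 bases before to 50 bases after the start, written 5′ to 3′ on the strand of the gene. Capitals mark TGTGGT (Runx core), GGTGTGA (T-box) or AGGAAGT (Ets), on either strand. The windows are those of Gzmb (chr14:56262285-56262584, minus strand), Gzma (chr13:113100932-113101231, minus strand), Prf1 (chr10:61297586-61297885, plus strand) and Nkg7 (chr7:43436888-43437187, plus strand).
Gzmb: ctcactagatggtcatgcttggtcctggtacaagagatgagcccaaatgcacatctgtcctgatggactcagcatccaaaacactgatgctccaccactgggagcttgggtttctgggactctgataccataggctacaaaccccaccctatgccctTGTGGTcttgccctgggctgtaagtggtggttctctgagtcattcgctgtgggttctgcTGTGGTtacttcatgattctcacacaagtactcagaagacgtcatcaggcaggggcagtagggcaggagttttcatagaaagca
Gzma: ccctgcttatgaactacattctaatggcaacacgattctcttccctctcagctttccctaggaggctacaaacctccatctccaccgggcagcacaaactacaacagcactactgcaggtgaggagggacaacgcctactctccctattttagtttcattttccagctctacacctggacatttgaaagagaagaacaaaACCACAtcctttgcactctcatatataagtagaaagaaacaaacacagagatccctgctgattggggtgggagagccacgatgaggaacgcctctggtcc
Prf1: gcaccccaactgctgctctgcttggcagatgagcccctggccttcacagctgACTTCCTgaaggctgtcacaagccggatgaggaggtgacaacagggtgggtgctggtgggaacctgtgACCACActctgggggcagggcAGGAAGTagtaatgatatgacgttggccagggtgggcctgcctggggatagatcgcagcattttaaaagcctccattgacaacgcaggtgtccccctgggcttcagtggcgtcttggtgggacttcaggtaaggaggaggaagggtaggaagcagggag
Nkg7: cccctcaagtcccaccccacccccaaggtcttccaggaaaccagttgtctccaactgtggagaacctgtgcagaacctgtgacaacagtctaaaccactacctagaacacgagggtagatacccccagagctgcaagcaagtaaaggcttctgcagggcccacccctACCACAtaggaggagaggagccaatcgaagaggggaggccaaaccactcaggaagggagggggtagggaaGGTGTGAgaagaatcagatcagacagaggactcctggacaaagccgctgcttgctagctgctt
Windows were found for 8 of the 10 genes and there were 10 windows, since Lck and Tcf7 had 2 each. TGTGGT was present in 5 of the 10 windows, against 16.8% of 32851 mouse windows of the same length, and the window of Gzmb held 2 copies. AGGAAGT was present in 4 of the 10 windows (9.35% of all windows) and GGTGTGA in 1 (3.98%), that of Nkg7. No matches overlapped one another in the windows printed. A match is a run of letters and no evidence of binding.

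Total gene counts per library ran from 12036360 to 23056525. CPM here means a count scaled by the size of its library, with TMM normalization. Most of the cytotoxic genes had few reads in sham muscle, with 0 in some libraries, and Prf1 had few in most libraries of all groups. A count of 0 is compatible with up to 3 reads. This covers counting error only. On the first principal component of all libraries (25.3% of the variance) both MOV libraries numbered 5 lay on the sham side, at -23.7 and -31.3, whereas the other MOV libraries lay between 22.1 and 110.8. The highest of these was MOV mimic number 4. In bulk muscle a lower level may mean fewer cells of a type or less RNA per cell, and these cannot be told apart.

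Gzmb, which encodes granzyme B, a serine protease that starts apoptosis, was low in sham and MOV control muscle and highest in MOV mimic muscle (Gzmb is ENSMUSG00000015437, chr14:56258836-56262334 of GRCm38.p6). In sham control libraries 1 to 5 it was at 0, 0.428, 1.06, 1.56 and 0.191 CPM, and in sham mimic at 0.609, 0.232, 1.82, 0.650 and 1.95 CPM. MOV control libraries had 0.707, 1.35, 2.45, 0.763 and 0.858 CPM and MOV mimic libraries 4.52, 6.99, 3.06, 10.6 and 2.22 CPM. The highest MOV control library lay above the lowest MOV mimic library, so the groups overlapped in that range, and in MOV mimic the libraries numbered 3 and 5 were the lowest. The reads behind these values numbered 12 to 46 per MOV control library and 35 to 149 per MOV mimic library.

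Gzma (ENSMUSG00000023132, chr13:113093824-113100981), which encodes granzyme A, a tryptase that acts alongside granzyme B, showed the same order of groups. Its values in libraries 1 to 5 were 0, 0.122, 1.06, 0.420 and 0.889 CPM in sham control and 1.29, 0.696, 3.49, 0.0867 and 0.883 CPM in sham mimic. They were 1.16, 3.31, 0.959, 1.46 and 0.787 CPM in MOV control, against 5.81, 12.6, 1.85, 9.30 and 1.33 CPM in MOV mimic. The 3 MOV mimic libraries numbered 1, 2 and 4 lay above all other libraries, and the remaining 2 lay within the range of MOV control. Gzma lies within the annotated span of Cdc20b, for which no read was counted in any library. Ctsw (ENSMUSG00000024910, chr19:5465043-5468628), which encodes cathepsin W, a cysteine protease of NK and cytotoxic T cells, had 0.311, 0.979, 2.18, 1.20 and 0.191 CPM in sham control and 0, 0.927, 3.05, 0.217 and 1.32 CPM in sham mimic. In overloaded muscle it had 0.404, 1.83, 0.799, 0.318 and 1.57 CPM in the control legs and 7.19, 10.7, 3.06, 5.98 and 1.33 CPM in the mimic legs. Of the MOV mimic libraries, number 5 alone fell within the MOV control range. Ctsw overlaps Fibp by 10 bases, and Fibp had 27.5 ± 3.22 CPM in MOV control, against 25.2 ± 4.01 CPM in MOV mimic (mean and SD of 5).

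Nkg7 (ENSMUSG00000004612, chr7:43437138-43438246), a membrane protein of cytotoxic granules needed for their release, ranged over 0 to 2.23 CPM (median 1.10) in sham control and 0.126 to 2.41 CPM (median 0.737) in sham mimic. It ranged over 0.318 to 4.49 CPM (median 2.24) in MOV control and 1.90 to 10.6 CPM (median 4.08) in MOV mimic. MOV control number 2 and MOV mimic number 2 were each the highest of their group. Prf1 (ENSMUSG00000037202, chr10:61297751-61304684), which encodes perforin, was the gene with the fewest reads, 31 over the 5 sham control libraries, 41 over sham mimic, 57 over MOV control and 139 over MOV mimic. In MOV mimic it was at 0.565, 4.69, 1.02, 0.886 and 0 CPM and in MOV control at 0.455, 0.392, 1.70, 0.0635 and 0.429 CPM. A single library, MOV mimic number 2, held 100 of the 139 MOV mimic reads, and number 5 had none.

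Among the T cell genes, Lck (ENSMUSG00000000409, chr4:129548344-129573641), the kinase that starts T cell receptor signaling, had its highest values in MOV mimic muscle. Its values were 0.778, 0.367, 2.50, 2.16 and 0.508 CPM in sham control and 1.14, 0.927, 2.80, 0.477 and 0.883 CPM in sham mimic. They were 4.80, 6.01, 2.40, 0.763 and 3.15 CPM in MOV control, against 12.9, 12.0, 3.88, 11.3 and 2.79 CPM in MOV mimic. MOV mimic numbers 1, 2 and 4 lay above all other libraries, while numbers 3 and 5 lay among the MOV control libraries. Cd8a (ENSMUSG00000053977, chr6:71373427-71379171), the alpha chain of the CD8 co-receptor, had 0.389, 0.306, 0.958, 1.32 and 0.127 CPM in sham control and 0.152, 0.927, 2.56, 0.260 and 0.441 CPM in sham mimic. In overloaded muscle it had 1.41, 2.92, 1.92, 0.191 and 1.72 CPM in the control legs and 7.09, 4.97, 3.69, 7.16 and 1.71 CPM in the mimic legs. For Cd8a too, MOV mimic number 5 was the only MOV mimic library within the range of MOV control.

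Cd3e (ENSMUSG00000032093, chr9:44998735-45009663), the epsilon chain of CD3 and a gene of all T cells, followed another pattern. It had 4.28, 4.10, 5.16, 2.94 and 2.22 CPM in sham control and 2.74, 1.68, 2.80, 2.86 and 2.90 CPM in sham mimic. It had 3.59, 3.14, 2.77, 1.40 and 9.73 CPM in MOV control, against 6.83, 5.35, 2.55, 6.05 and 4.00 CPM in MOV mimic. The highest value of all came from MOV control number 5, a library in which Gzmb was at 0.858 CPM and Cd8a at 1.72 CPM. All 4 groups overlapped. Tcf7 (ENSMUSG00000000782, chr11:52246527-52283383), which encodes TCF-1, a transcription factor of naive and memory-like T cells rather than of terminal effector cells, ranged over 0.233 to 2.50 CPM in sham control and 0.838 to 1.58 CPM in sham mimic, and over 0.953 to 4.10 CPM in MOV control and 2.16 to 9.66 CPM in MOV mimic. The medians were 0.795, 1.04, 2.96 and 7.16 CPM in that order. Tcf7 overlaps 332 bases of Skp1, a gene at 245 ± 71.1 CPM in MOV control, against 223 ± 47.8 CPM in MOV mimic, and the strand setting of the counting is not given in the sources used here. The span of Lck contains Mir8119.

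Il15 (ENSMUSG00000031712, chr8:82331624-82403252) showed a different order of groups from the cytotoxic genes, with its highest levels in sham muscle and its lowest in MOV control muscle. It was at 13.2, 12.0, 6.76, 7.49 and 8.07 CPM in sham control and 12.6, 6.26, 10.8, 9.19 and 10.2 CPM in sham mimic. MOV control libraries had 4.50, 4.27, 2.88, 2.35 and 2.29 CPM and MOV mimic libraries 7.76, 8.96, 5.99, 8.49 and 6.72 CPM. Every MOV control library lay below every library of the other 3 groups, while MOV mimic overlapped both sham groups. The share of all genes with this order was not counted. Within the MOV groups Il15 was also the most even of the 10 genes, with 1.97-fold between the highest and the lowest MOV control library, against 15.3-fold for Cd8a.

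**Figure D1:**
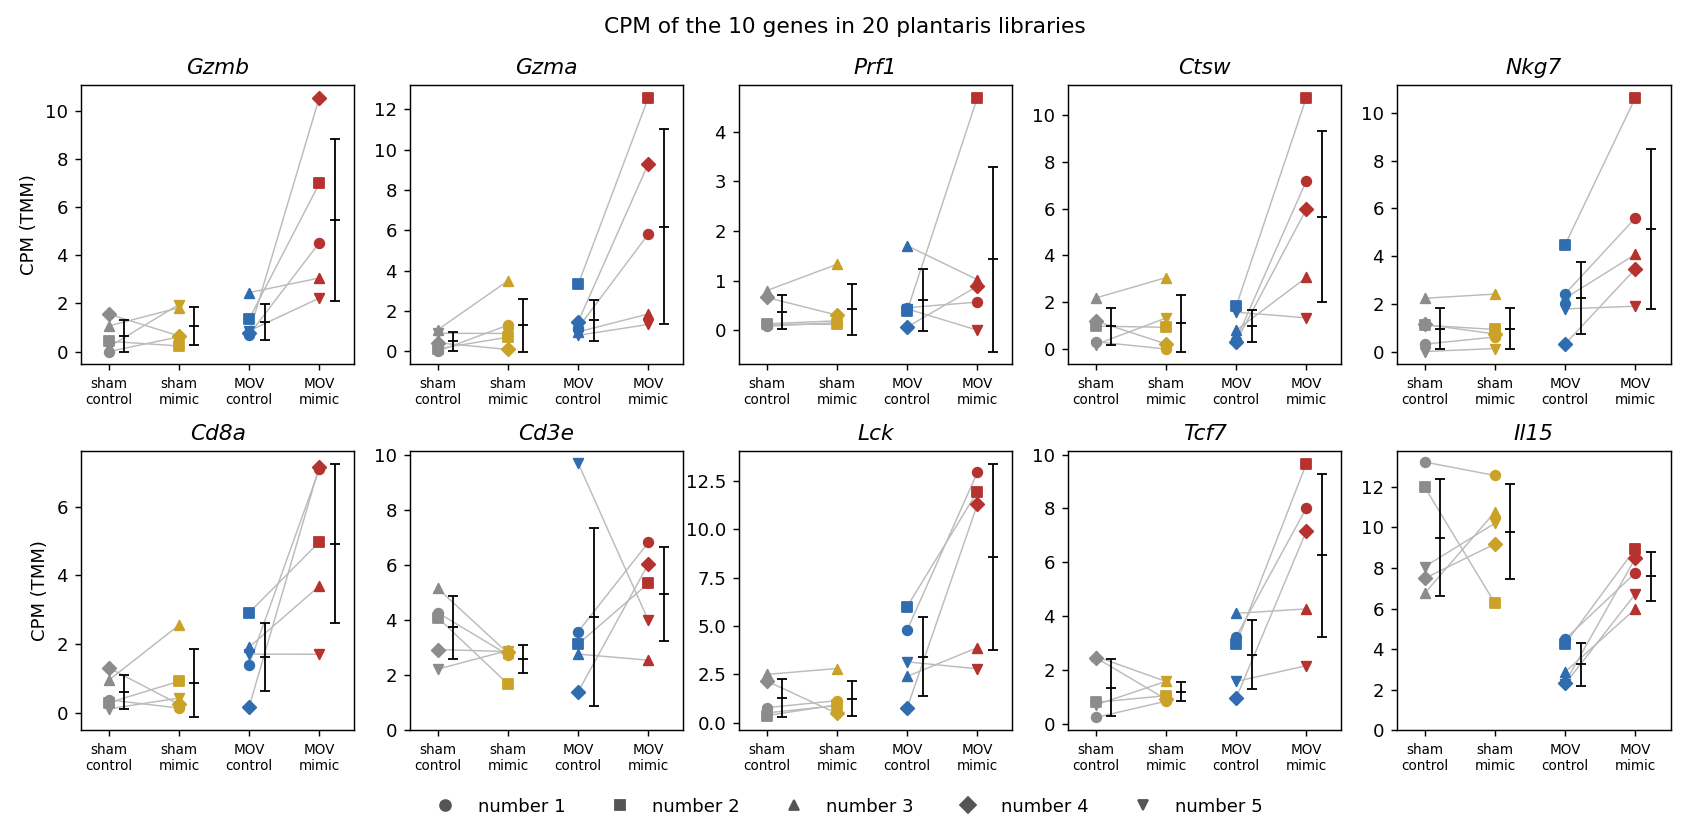
CPM of each of the 10 genes in the 20 libraries, with 1 panel per gene, the 4 groups on the horizontal axis and TMM-normalized CPM on a linear vertical axis with its own scale in each panel. Markers give the replicate number, gray lines join sham or MOV libraries of equal number, and black bars are the mean ± SD of 5 libraries. For Il15 the MOV control libraries lie at 2.29 to 4.50 CPM, below all others, whereas for Gzmb the MOV mimic libraries reach 10.6 CPM.

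The difference between mimic and control, on which the genes were selected, was taken between libraries of equal number as log2 CPM with a prior count of 2. In MOV it was 2.50, 2.28, 0.31, 3.60 and 1.26 for Gzmb in numbers 1 to 5, a mean of 1.99 ± 1.26 (SD, n = 5 pairs). For Il15 it was 0.77, 1.05, 1.03, 1.80 and 1.51, a mean of 1.23 ± 0.41. The Il15 difference had the smallest SD of the 10 genes. Among the other granule genes the mean was 1.65 ± 0.83 for Gzma, 2.34 ± 1.68 for Ctsw, 1.27 ± 1.09 for Nkg7 and 0.61 ± 2.26 for Prf1. Among the T cell genes it was 1.69 ± 1.80 for Cd8a, 1.32 ± 1.45 for Lck, 1.24 ± 1.07 for Tcf7 and 0.46 ± 1.23 for Cd3e. Number 4 gave the largest difference for 9 of the 10 genes and number 5 the smallest for 7, so the pairs did not contribute evenly. Without number 4 the mean was 0.97 for Cd8a, 0.72 for Lck, 0.83 for Nkg7, 0.14 for Prf1 and 0.07 for Cd3e. Without number 5 it was 0.89 for Cd3e and 1.33 for Prf1, and for Prf1 also 0.94 without number 3 and below 0 without number 2.

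In MOV, 5 of the 10 genes (Gzmb, Gzma, Nkg7, Tcf7 and Il15) had more CPM in mimic than in control in 5 of 5 pairs, where 3.87% of 16166 genes did so. Il15 was the 1 gene of the 10 for which every MOV mimic library lay above every MOV control library, against 0.309% of all genes. The median log2FC of mimic against control was 1.30 for the 10 genes and -0.01 for all genes. Since the choice of the genes used this contrast, these counts and shares carry no test. Over all genes in MOV, edgeR called 0% (0 of 15220, with 641 at an unadjusted p under 0.05 and 3 called by DESeq2).

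In sham muscle no gene of the 10 was above control in 5 of 5 pairs (2.34% of all genes), and the mean difference ran from -0.47 ± 0.64 for Cd3e to 1.12 ± 1.91 for Gzma, with 0.06 ± 0.61 for Il15. Both ends leaned on 1 pair, with a mean of 0.49 for Gzma without number 1, in which the control library had 0 reads, and of -0.29 for Cd3e without number 2. For all 10 genes the SD over the sham pairs exceeded the size of the mean, and Cd3e was lower in the mimic in 4 of 5. Of the 8 genes that passed the filter on low counts, edgeR called 0, and 0 had an unadjusted p under 0.05. Its log2FC of mimic against control was 0.05 (standard error 0.23) for Il15, 0.66 (standard error 0.79) for Gzmb, 1.32 (standard error 0.88) for Gzma and -0.53 (standard error 0.27) for Cd3e, each with an edgeR adjusted p of 1.000. Over all genes in sham, edgeR called 0% (0 of 14746, with 254 at an unadjusted p under 0.05 and 0 called by DESeq2).

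**Figure D2:**
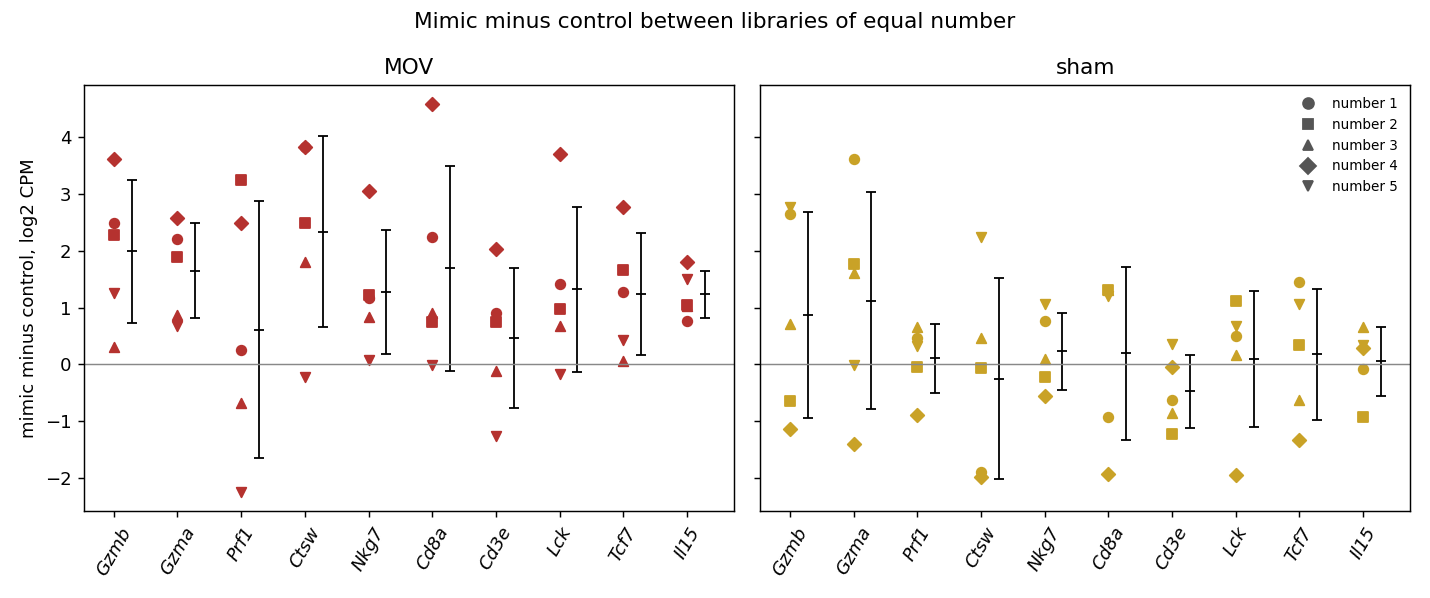
Mimic minus control of each of the 10 genes in log2 CPM between libraries of equal number, MOV on the left and sham on the right, with markers for the replicate number and bars for the mean ± SD of 5 pairs. In MOV all 5 pairs of Il15 lie between 0.77 and 1.80, whereas Prf1 spreads from -2.24 to 3.24.

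Levels in MOV against sham were compared with the libraries of each pair summed. The sum is weighted toward the leg with more reads of a gene, so a gene chosen for high counts in MOV mimic tends to have a high MOV sum as well, and the values below are given with no test. Of the 10 genes, 9 had more CPM in MOV than in sham and Il15 had less. The median log2FC was 1.90 for the 9 lymphocyte genes, 1.85 for all 10 genes and 0.04 for all 16661 genes tested.

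Il15 had 12.5, 9.0, 8.93, 8.55 and 9.26 CPM in sham pairs 1 to 5 and 6.06, 6.51, 4.25, 5.25 and 4.64 CPM in MOV pairs 1 to 5. Every MOV pair lay below every sham pair (log2FC -0.85, standard error 0.17), as for 3.02% of all genes. Lck had 0.936, 0.651, 2.68, 1.19 and 0.705 CPM in the sham pairs and 8.76, 8.85, 3.05, 5.70 and 2.96 CPM in the MOV pairs. Here every MOV pair lay above every sham pair (log2FC 2.24, standard error 0.46), and the same held for Gzmb, with 0.300, 0.326, 1.47, 1.04 and 1.09 CPM in sham and 2.57, 4.05, 2.70, 5.35 and 1.58 CPM in MOV (log2FC 1.93, standard error 0.48). Over all genes 2.11% had every MOV pair above every sham pair. For Lck and Gzmb the sham pair numbered 3 was the highest of its group and the MOV pair numbered 5 the lowest.

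For the other genes the MOV and sham pairs overlapped. Tcf7 had 1.24 ± 0.586 CPM in sham and 4.32 ± 1.67 CPM in MOV (SD, n = 5 pairs each, log2FC 1.79, standard error 0.39). Cd8a had 0.738 ± 0.630 CPM in sham and 3.19 ± 0.997 CPM in MOV (log2FC 2.09, standard error 0.49). The granule genes Gzma (log2FC 2.04, standard error 0.67), Nkg7 (log2FC 1.90, standard error 0.65) and Ctsw (log2FC 1.62, standard error 0.60) had log2FCs of the same direction with wider errors. Prf1 (log2FC 1.35, standard error 0.78) and Cd3e (log2FC 0.50, standard error 0.25) had the smallest log2FCs of the 9. Sham pair 3 was the highest sham pair for all 9 lymphocyte genes, and MOV pair 5 was the lowest MOV pair for 7 of them, Cd3e and Nkg7 being the exceptions.

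Leaving out MOV pair 5 changed the log2FC of Cd3e from 0.50 to 0.30, while those of Lck (2.40), Gzmb (2.09) and Il15 (-0.81) moved little. Prf1 went to 0.69 without MOV pair 2 and to 2.19 without sham pair 3. The log2FC of each of the 10 genes kept its sign with each pair left out in turn.

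**Figure D3:**
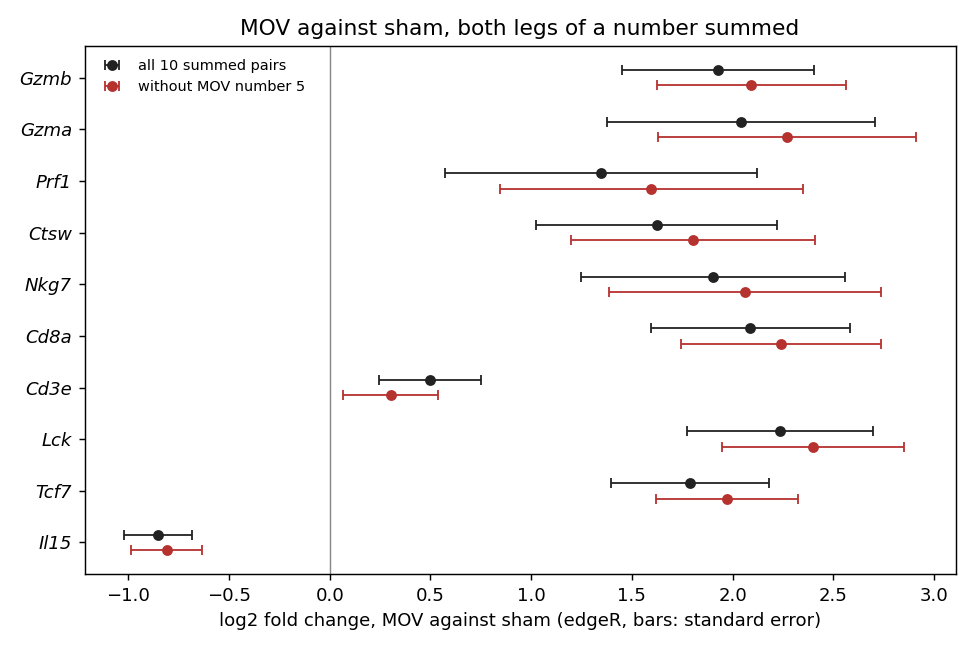
Log2 fold change of MOV against sham for each of the 10 genes from edgeR, with libraries of equal number summed and bars for the standard error, over all 10 pairs (black) and without MOV pair 5 (red). Lck lies furthest to the right at 2.24, Cd3e nearest to 0 at 0.50, and Il15 alone lies left of 0 at -0.85.

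Within each virus, MOV against sham shares its MOV libraries with the contrast that chose the genes, so these values are set side by side with no test. With control virus, Il15 had 9.51 ± 2.90 CPM in sham and 3.26 ± 1.06 CPM in MOV (mean and SD of 5 libraries), giving a log2FC of -1.53 (standard error 0.28). With mimic virus it had 9.80 ± 2.33 CPM in sham and 7.58 ± 1.23 CPM in MOV, a log2FC of -0.36 (standard error 0.22). Gzmb had log2FCs of 0.90 (standard error 0.74) with control virus and 2.36 (standard error 0.60) with mimic virus, and Lck 1.43 (standard error 0.61) and 2.78 (standard error 0.55). For Ctsw they were 0.01 (standard error 0.68) and 2.34 (standard error 0.83). The summed value for Ctsw lay nearer to that with mimic virus, and so did that for Gzmb. Over all genes, edgeR called 0% of 14974 higher and 0.00668% lower in MOV with control virus, and 0% of 14918 in each direction with mimic virus.

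Other genes of the same pathways were counted in 6 lists with 97 genes in all, of which 85 passed the filter in MOV against sham with libraries summed. edgeR called 0 of the 85, 41 had an unadjusted p under 0.05 with more CPM in MOV and 7 with less, where 10.2% of all genes did so in each direction. The lists hold genes of the same cells, and the sums contain the MOV libraries that chose the 10. Counts of list genes in MOV against sham are therefore no independent evidence for the 10. Over all genes edgeR called 0.006% higher and 0.144% lower. DESeq2 called 20 higher and 2 lower, against 3.13% and 3.61% of all genes. Its 20 include Gzmc, Gzmd and Eomes, with at most 6, 9 and 14 reads in any sham library. They passed the filter on low counts through their MOV libraries, so these calls carry no weight. Without MOV pair 5, edgeR called 20 higher and 3 lower of 89, against 3.99% and 6.02% of 17130 genes. The 20 called higher without MOV pair 5 include Klre1 and Cst7, which passed the filter on low counts only in that fit, through their MOV libraries. Gzmc and Eomes, also among them, passed through their MOV libraries too, so none of these calls carries weight. The other called genes were not checked for this. Between mimic and control in MOV, the genes higher in the mimic in 5 of 5 pairs were 2 of 20 T cell receptor genes, 2 of 15 NK cell receptor genes, 4 of 16 granule genes, 1 of 18 genes of IL-15 signaling, 3 of 14 transcription factors and 1 of 14 trafficking genes. The share of 3.87% is over genes that passed the filter on low counts, whereas these counts cover every listed gene. In mimic against control in MOV, 10 of the 15 NK cell receptor genes and 11 of the 14 transcription factors passed it. In MOV against sham the median log2FC was 1.49 over 20 T cell receptor genes, 1.36 over 12 NK cell receptor genes and 0.44 over 14 granule and death ligand genes, against 0.04 for all genes. It was 0.12 over 16 genes of IL-15 and common gamma chain signaling, 0.81 over 12 transcription factors and 1.19 over 11 genes of lymphocyte trafficking and interferon gamma. The list counts by DESeq2 and without MOV pair 5 were added, and the genes named from these lists below were picked, after their values were seen.

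Of the receptor for IL-15, the alpha chain gene Il15ra overlapped between all groups, with 13.2 ± 1.17 CPM in MOV control, 17.1 ± 5.09 CPM in MOV mimic, 15.0 ± 2.93 CPM in sham control and 14.6 ± 3.51 CPM in sham mimic (mean and SD of 5 libraries). The beta chain gene Il2rb, which marks NK and memory CD8 T cells, had 2.58, 5.40, 5.75, 0 and 2.57 CPM in MOV control, against 9.97, 18.9, 3.69, 17.3 and 1.90 CPM in MOV mimic. As for Lck and Gzma, the MOV mimic libraries numbered 1, 2 and 4 held the high values. In MOV against sham with libraries summed, Il2rb did not pass the test (log2FC 1.96, standard error 0.47), at an edgeR adjusted p of 0.0815. The common gamma chain gene Il2rg had 6.13 ± 2.75 CPM in MOV control, against 14.2 ± 8.23 CPM in MOV mimic. Without MOV pair 5, edgeR called Il2rb (log2FC 2.17), Il21r (1.79) and the gamma chain kinase gene Jak3 (0.87) higher and Jak1 (-0.42) and Stat5b (-0.78) lower.

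Among NK cell receptors, Klrk1, which encodes NKG2D and is also carried by activated CD8 T cells, had 3.24 ± 2.08 CPM in MOV control, against 8.22 ± 8.31 CPM in MOV mimic. The NK-restricted gene Ncr1, which encodes NKp46, had 1.06, 0.653, 0.160, 0.508 and 0.429 CPM in MOV control, against 0.719, 2.16, 0.0637, 0 and 0 CPM in MOV mimic, so it was at 0 in 2 mimic libraries and high in number 2. Klrb1c, which encodes NK1.1, had 1.11, 0.871, 1.01, 0 and 0.429 CPM in MOV control, against 0.771, 3.52, 0, 1.99 and 0.127 CPM in MOV mimic. Without MOV pair 5, the NK receptor genes Klrk1 (log2FC 2.17) and Klra8 (2.78) were called higher in MOV, as were the T cell receptor genes Cd3g (2.20), Cd2 (1.99), Cd6 (1.76), Zap70 (1.26) and Lat (1.61).

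Eomes and Tbx21 encode the T-box factors that drive Gzmb and Prf1 in NK and CD8 T cells. Eomes had 0, 0.871, 0.533, 0 and 0.787 CPM in MOV control, against 1.85, 3.10, 0.573, 3.69 and 1.01 CPM in MOV mimic, and Tbx21 had 0.758, 0.958, 0.906, 0.191 and 0.215 CPM and 2.57, 4.03, 1.40, 4.21 and 1.27 CPM. For Tbx21 every MOV mimic library lay above every MOV control library, as for 0.309% of all genes. Its reads numbered 3 to 22 per MOV control library and 20 to 86 per MOV mimic library. The 3 transcription factors that were higher in the mimic in 5 of 5 pairs were Eomes, Tbx21 and Gata3, the factor of helper T cells of type 2 and of innate lymphoid cells. Gata3 differed by 2.36 ± 0.72 log2 CPM (mean and SD of 5 pairs), but had at most 27 reads in any library. It was at 0.104 ± 0.145 CPM in MOV control, against 0.902 ± 0.419 CPM in MOV mimic, and did not pass the filter in MOV against sham. At so few reads the size of this difference depends on the prior count. Runx1 (-0.17 ± 0.41), Bach2 (-0.40 ± 0.67) and Lef1 (-0.17 ± 1.38) had means below 0. In MOV against sham without MOV pair 5, Eomes (log2FC 2.04) and Runx3 (1.73) were the 2 transcription factors called, both higher in MOV. Eomes had at most 14 reads in any sham library and passed the filter on low counts through its MOV libraries, so its call carries no weight.

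The granule list did not move as 1 block. The 4 granule genes higher in the mimic in 5 of 5 pairs were Srgn (0.82 ± 0.42 log2 CPM, mean and SD of 5 pairs), which encodes the granule proteoglycan serglycin, Ctsc (0.65 ± 0.67), the protease that activates granzymes, Stxbp2 (0.89 ± 0.69) and Unc13d (1.64 ± 1.75). Gzmd and Gzme, granzymes of the same cluster as Gzmb on chromosome 14, had their highest values in MOV control, with 0.707, 0.610, 0.746, 2.41 and 14.4 CPM and 2.22, 3.35, 0.852, 4.26 and 15.3 CPM in numbers 1 to 5, against 0, 0.704, 0, 0.960 and 0.317 CPM and 1.85, 2.58, 0.127, 2.21 and 0.634 CPM in MOV mimic. MOV control number 5 held the top value of both, as it did for Cd3e. Gzmc, Gzmd and Gzme are close paralogs, so their values are uncertain where reads fit more than 1 of them. Without MOV pair 5, edgeR called Gzmc (log2FC 2.47), Unc13d (1.31) and Serpinb9 (0.98) higher in MOV and Gzmm (-1.16) lower. Gzmc had at most 6 reads in any sham library and passed the filter on low counts through its MOV libraries, so its call carries no weight. Unc13d, which encodes Munc13-4, a factor that primes granules for release, had 1.98 ± 1.14 CPM in MOV control, against 6.69 ± 4.76 CPM in MOV mimic.

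In the trafficking list, Cxcl9, an interferon-gamma-induced ligand that draws in CXCR3+ T and NK cells, varied widely, with 16.1, 79.0, 8.74, 62.7 and 5.94 CPM in MOV control, against 51.2, 367, 9.62, 251.8 and 3.87 CPM in MOV mimic. Numbers 2 and 4 were the highest in each of the MOV groups and numbers 3 and 5 the lowest. Ifng itself was at 0.514, 2.77, 0.255, 10.4 and 0 CPM in MOV mimic and at or below 0.318 CPM in MOV control. Without MOV pair 5, Cxcl9 (log2FC 3.31), Ccl5 (2.44) and Cxcr6 (1.55) were called higher in MOV.

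Markers of the cells that could carry these genes were summed per library. The T cell markers (6 genes, of which Cd3e, Cd8a and Lck are among the 10) came to 3.49 to 14.0 CPM in sham control, 4.73 to 11.9 CPM in sham mimic, 2.92 to 19.5 CPM in MOV control and 12.9 to 43.5 CPM in MOV mimic. The NK cell markers (4 genes with Nkg7) came to 0.389 to 5.48, 1.13 to 6.20, 0.890 to 7.83 and 3.55 to 25.6 CPM. Members of the 10 form a large part of both sums, with MOV mimic means of 8.58 CPM for Lck, 4.96 for Cd3e, 4.93 for Cd8a and 5.14 for Nkg7. The sums are therefore not independent of the choice. Of the other markers, Cd8b1 was higher in the mimic in 5 of 5 MOV pairs, Cd3d, Cd3g and Klrd1 in 4, Klrb1c in 2 and Ncr1 in 1. The pan leukocyte markers Ptprc, Coro1a and Laptm5 came to 27.7 to 119, 28.4 to 109, 39.3 to 119 and 59.9 to 266 CPM. Ptprc, which encodes CD45, was higher in the mimic in 5 of 5 MOV pairs. Its highest values, 63.3, 91.8, 37.6, 59.5 and 18.8 CPM in MOV mimic numbers 1 to 5, fell in numbers 1, 2 and 4, as for Gzmb, Gzma, Lck and Il2rb. The part of leukocyte number in the differences was not tested.

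The summed markers of other cell types overlapped between MOV control and MOV mimic, but some single markers were higher in the mimic in 5 of 5 pairs. These were Clec9a, of cross-presenting dendritic cells (1.51 ± 0.663 CPM in MOV control, against 4.87 ± 2.79 CPM in MOV mimic), the macrophage genes Adgre1 and Csf1r, and the red cell genes Hba-a1 and Alas2, with mean differences of 1.52 ± 0.47, 0.76 ± 0.91, 0.66 ± 0.90, 0.59 ± 0.34 and 1.38 ± 0.89 log2 CPM in that order. Their part in the differences of the 10 genes was not tested. Macrophage markers (7 genes) came to 112 to 404 CPM in MOV control, against 205 to 424 CPM in MOV mimic, and dendritic cell markers (6 genes) to 18.3 to 33.0 and 17.5 to 53.5 CPM, with medians of 22.6 and 45.1 CPM. B cell markers (5 genes) stayed at or under 3.89 CPM in every library, neutrophil markers (5 genes) at 2.79 to 17.2 CPM in MOV control, against 6.53 to 15.3 CPM in MOV mimic, and mast cell markers (5 genes) at 2.73 to 14.0 and 3.30 to 15.8 CPM. Fibro-adipogenic markers (5 genes) came to 1061 to 4621 and 2247 to 4157 CPM and red blood cell markers (3 of 5 genes present in the tables) to 12.2 to 54.0 and 16.1 to 65.4 CPM. Muscle fiber markers (6 genes), which define the labelled tissue, were at 99702 to 160044 CPM in sham control, 93759 to 158118 CPM in sham mimic, 75563 to 128021 CPM in MOV control and 55439.5 to 112971 CPM in MOV mimic. Apart from genes of the 10, edgeR called 0 genes of any marker list in MOV against sham with libraries summed. DESeq2 called Cd3g higher and Myh4 lower, and without MOV pair 5 edgeR called Cd3g higher and Ckm and Myh4 lower.

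Across the 20 libraries the log2 CPM of the 9 lymphocyte genes varied together. Pearson's r over the 36 pairs of genes ran from 0.22 to 0.93 with a median of 0.73, and with the group means subtracted from 0.03 to 0.84 with a median of 0.61. The low end belonged to Cd3e with Gzma. Il15 did not follow them, with r from -0.22 to 0.05 across libraries and from -0.10 to 0.24 within groups. Libraries of equal number may come from 1 mouse and all share 1 normalization, so this is a description and no p is given. Of the other 16156 genes, those most like the mean of the 9 were Trac (r = 0.946), which encodes the constant region of the T cell receptor alpha chain, Spn (0.944), which encodes the leukocyte surface protein CD43, and Gimap3 (0.943), a GTPase gene of lymphocytes. Those most like Il15 were Spock2 (0.858), Htra4 (0.854) and Rnf114 (0.852).

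The mean log2 CPM of the 9 genes was 0.65 ± 0.76 in MOV control, 2.05 ± 0.95 in MOV mimic, -0.31 ± 0.99 in sham control and -0.08 ± 0.81 in sham mimic (mean and SD of 5 libraries). The MOV mimic libraries ran from 0.65 for number 5 to 3.03 for number 2, so the lowest of them lay within the range of every other group.

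**Figure D4:**
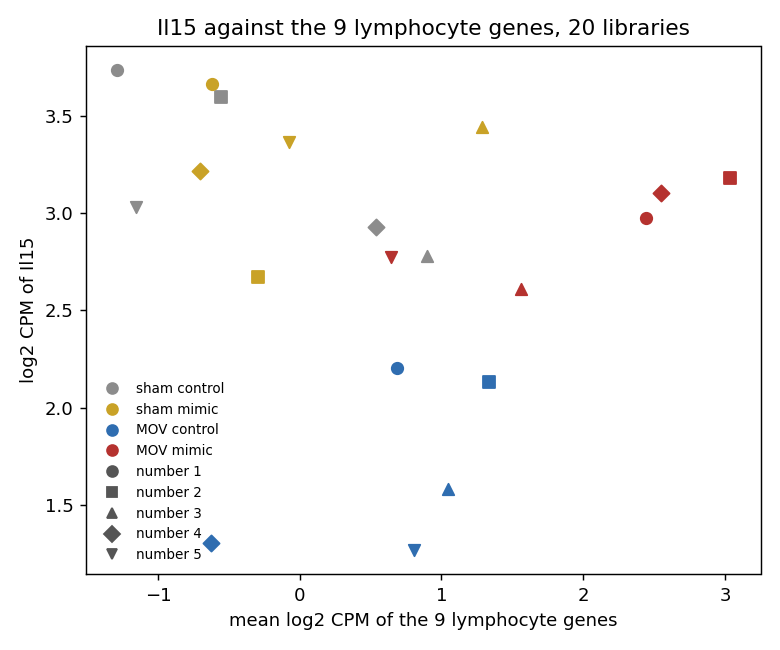
Log2 CPM of Il15 (vertical axis) against the mean log2 CPM of the 9 lymphocyte genes (horizontal axis) in 20 libraries, with colors for the 4 groups and markers for the replicate number. MOV control libraries lie lowest on the Il15 axis, and MOV mimic libraries 1, 2 and 4 lie furthest to the right, up to 3.03.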

How the data were processed

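RNA-seq counts were analyzed for 20 plantaris libraries. Raw read counts for Ensembl genes were deposited by the authors as a control and a mimic table, made by trimming (Trim Galore 0.6.10 with cutadapt 4.4), alignment to GRCm38 with HISAT2 2.0.5 and counting with featureCounts 1.5.0-p3. The annotation release, strand setting and handling of multi-mapping reads are not given in the sources used here. Symbols were matched for 32640 of 54532 genes, and 30194 had at least 1 count. Loci and start-site windows are from RefSeq on GRCm38.p6.

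Counts were tested with edgeR 4.0.16 (TMM, filterByExpr, quasi-likelihood, two-sided, Benjamini-Hochberg over all genes tested, threshold 0.05). Mimic was compared with control in sham. MOV was compared with sham after summing the libraries of equal number, since the methods give each mouse both viruses, and within each virus. The 10 genes were first to be tested there, but these fits share the MOV libraries that chose them, so their values are descriptions. Alternatives were DESeq2 1.42.0, its size factors in edgeR, no filter, a replicate block, a prior count of 0.5 in place of 2 for log2 CPM, and each library or pair left out. The fits were checked on simulated data. R 4.3.3, Python 3.11.15, pandas 2.3.3 and matplotlib 3.10.9 were used. Where nothing shows that libraries come from separate mice, p-values measure the spread between these libraries. The 10 genes and the lists were chosen with earlier results of these data known. The rule for named genes took the 10, the 3 genes most correlated with their mean and with Il15, and the called list genes with the smallest adjusted p, of which there were none. All other genes named were picked after their values were seen.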

Additional observations from a re-analysis of the deposited data

Results flagged for a closer look

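Each of the 10 genes was checked in each of the 4 groups of 5 libraries for a library whose gap to its nearest neighbor exceeds 0.71 of the range of the group (Dixon's ratio). Of 40 such checks, 7 found one. The usual rate of about 1 in 20 holds for independent normal values. CPM at few reads, in genes that vary together, are not such values, so no excess over chance can be read from this count. Prf1, at few reads, gave 3 of them, with sham mimic number 3 at 1.33 CPM, MOV control number 3 at 1.70 CPM and MOV mimic number 2 at 4.69 CPM, all above the rest of their group. Cd3e gave 2, with MOV control number 5 at 9.73 CPM above its group and sham mimic number 2 at 1.68 CPM below. Gzma in MOV control number 2 was at 3.31 CPM, and Lck in sham mimic number 3 at 2.80 CPM, both above their groups. For Gzma and Lck these libraries lay below the MOV mimic libraries numbered 1, 2 and 4.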

How the results depend on the processing

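Values here are log2 differences unless said otherwise. Counts of the 10 genes called in MOV against sham are given as descriptions only, since their MOV libraries also chose the genes. In MOV against sham with libraries summed, where edgeR called 25 genes of all (3403 at an unadjusted p under 0.05) and 0 of the 10, DESeq2 called 1122 genes and 7 of the 10, no filter gave 156 and 3, DESeq2's size factors 17 and 0, and the replicate block 0 (2631 unadjusted) and 0. Leaving out 1 pair at a time gave 0 to 1714 genes and 0 to 6 of the 10, the highest without MOV pair 5. With control virus edgeR called 1 gene and 0 of 9, DESeq2 914 genes and 1 of the 10, no filter 388 and 1, and leaving out libraries 0 to 426 genes (426 without sham control number 3 and 318 without MOV control number 5) and 0 to 1 of the 10. With mimic virus edgeR called 0 genes (1997 unadjusted) and 0 of 10, DESeq2 221 genes and 5 of the 10, no filter 1 gene, and leaving out libraries 0 to 101 genes and 0 to 2 of the 10, the highest without MOV mimic number 5. Between mimic and control in MOV DESeq2 called 3 genes. The cause of these shifts was not tested.

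Signs changed for values near 0. With control virus, Cd3e in MOV against sham went to -0.13 with the replicate block and ran from -0.45 to 0.35 with libraries left out, and Ctsw went to -0.00020 with DESeq2's size factors and -0.0172 with no filter and ran from -0.36 to 0.55. Leaving out 1 number at a time, mimic minus control in sham ran from -0.085 to 0.73 for Cd8a, from -0.87 to 0.19 for Ctsw, from -0.093 to 0.30 for Il15, from -0.15 to 0.61 for Lck, from -0.032 to 0.36 for Prf1 and from -0.14 to 0.56 for Tcf7. In MOV it ran from -0.045 (without number 2) to 1.33 for Prf1, the 1 gene of the 10 whose sign changed there.

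Libraries of equal number deviated from their group means with a mean correlation across genes of 0.163 in MOV (lowest 0.0347) and 0.232 in sham (lowest 0.0116), against -0.0398 and -0.0524 for unequal numbers, and 3 and 2 of 5 pairs were best matched to their own number. The numbers therefore did not meet the bar for pairing the samples (every pair above 0.1), and the block was used as an alternative only. The sums and the differences by number still join libraries of equal number, which assumes that these belong together. The replicate block left the calls of the 10 genes at 0 in all 3 comparisons of MOV with sham. There it joins sham and MOV libraries of equal number, which the methods give as different mice. Over all genes the block fit called 0 with libraries summed, 1 with control virus and 0 with mimic virus, so the 0 says nothing particular about the 10. At these depths Prf1 had 0 reads in 1 library, and differences of a few reads were not detectable.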
